A study of Mus musculus with 6 samples.

Results

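A set of 10 genes of the acute phase and of inducible inflammation were followed in mouse adipose tissue: Nos2, Arg1, Tlr4, Il1rn, Saa3, Hp, Orm1, Lcn2, Serpina3n and Nlrp3. They were chosen by symbol, with earlier results of these data known, and all 10 were found among the 19928 genes of the table. The tissue came from KM mice, an outbred stock, and was sampled as 3 control libraries and 3 libraries from mice whose feed was supplemented with radix Angelica sinensis (RAS), a root of traditional Chinese medicine, at a dose of 10.00 g per kg body weight. The series title speaks of mice made obese by a high-fat diet, while the controls are labelled for diet only as control. No source used here gives the fat depot, sex, age or length of feeding. Whether 1 or several mice went into a sample is not stated either, and the p-values therefore reflect only how far these samples spread, which may in part be technical.

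The acute phase response is the change in secreted proteins that follows infection or injury, driven mainly by interleukin 6 and interleukin 1 through the transcription factors STAT3, C/EBP and NF-kB. Liver is its best known site, but fat cells and the cells around them also make haptoglobin, orosomucoid, serum amyloid A3 and lipocalin 2. Macrophages that meet bacterial products through Toll-like receptor 4 induce the nitric oxide synthase Nos2 and the NLRP3 inflammasome sensor, whereas arginase 1, which uses the same substrate as Nos2, is a mark of alternatively activated macrophages.

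Assigned reads numbered 14.4 to 15.7 M per library, and 12462 to 12641 genes reached 1 FPKM (fragments corrected for transcript length and sequencing depth). Read numbers printed for a gene are estimates, the authors' scaled count signal divided by its step in that library and rounded, since not every value of the signal was a whole multiple of the step. Adipocyte markers summed to 34936 to 41066 FPKM in the control libraries and to 45050 to 64748 FPKM in the RAS libraries. Most of each sum was Fabp4, at 20821 to 26447 and 30163 to 45586 FPKM. Ranges were apart with RAS higher for 3 of the 9 markers. With RAS lower they were apart for 1, Lep, at 424 to 615 and 293 to 334 FPKM. Over all genes tested below these shares were 5.42% and 12.5%. The first principal component, 31.0% of the variance, had RAS 3 at 34.5 and control 1 at -24.5, and the remaining 4 libraries from -8.36 to 1.2. Values with these 2 libraries left out are given where they change a result.

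Differences are RAS minus control on the scale of log2(FPKM + 1), tested with limma in 12606 genes with a mean of at least 1 FPKM. No gene reached an adjusted p of 0.05 (0 of 12606, 0%), and 10.3% had an unadjusted p under 0.05 in limma. With the scaled counts in place of FPKM, limma also called 0 genes, with 1551 at an unadjusted p under 0.05. Of the 10 members 7 were tested and 0 of the 7 passed; Arg1, Nlrp3 and Il1rn lay under the minimum and are given as levels only. Of the tested members 3 were higher and 4 lower, with a median of -0.08, beside -0.04 over all tested genes, of which 43.0% were higher. The members' median was 0.04 without control 3 and 0.0065 without RAS 1. An unadjusted p under 0.05 with RAS lower was found for 1 member, Nos2, and for 6.41% of all tested genes. Without control 1, 3 of the 7 (Nos2, Saa3 and Orm1) had such a p in either direction, beside 1367 of 12606 genes. Without control 1 and RAS 3 together these numbers were 3 of 7 and 1740 of 12606. Non-overlapping FPKM ranges with RAS lower were seen in 1 member, Nos2, and in 12.5% of all tested genes; no member lay apart with RAS higher, against 5.42% of all tested genes.

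The sequence upstream of a gene's start holds part of what an acute phase signal acts on. RefSeq (GRCm38.p6) entries were matched for 5 of the 10 members, Saa3, Lcn2, Serpina3n, Il1rn and Nlrp3, with 8 start sites in all. Shown are 3: Saa3, which varied most between libraries among the 7 tested members, and Lcn2 and Serpina3n, 2 acute phase genes that varied less. Each is the 250 bases before the start, 5′ to 3′ on the gene's strand, with motif matches in capitals.

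Saa3 (chr7:46715677-46715926, minus strand): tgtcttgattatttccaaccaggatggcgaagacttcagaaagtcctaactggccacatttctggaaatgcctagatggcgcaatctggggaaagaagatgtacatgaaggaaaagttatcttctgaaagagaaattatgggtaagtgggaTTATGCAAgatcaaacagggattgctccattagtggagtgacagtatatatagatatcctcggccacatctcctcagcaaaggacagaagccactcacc
Lcn2 (chr2:32387740-32387989, minus strand): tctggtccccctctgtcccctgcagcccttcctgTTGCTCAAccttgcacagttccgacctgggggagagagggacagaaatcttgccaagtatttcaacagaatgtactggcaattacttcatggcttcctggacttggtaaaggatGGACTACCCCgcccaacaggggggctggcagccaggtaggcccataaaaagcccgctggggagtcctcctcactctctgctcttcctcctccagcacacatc
Serpina3n (chr12:104406458-104406707, plus strand): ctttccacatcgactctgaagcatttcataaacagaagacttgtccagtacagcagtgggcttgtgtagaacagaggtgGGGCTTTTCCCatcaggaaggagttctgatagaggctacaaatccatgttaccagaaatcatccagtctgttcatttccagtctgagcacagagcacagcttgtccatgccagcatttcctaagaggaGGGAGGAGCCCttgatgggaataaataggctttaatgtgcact

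Searched on both strands were GGG followed by any 5 bases and CC for NF-kB, TTGCNNAA for C/EBP and TTCNNNGAA for STAT. Saa3 held 1 C/EBP match, TTATGCAA, 99 bases before the start. Lcn2 held a C/EBP match 216 bases and an NF-kB match 102 bases before the start. Serpina3n held 4 NF-kB matches, which overlap in pairs at 171 and 170 and at 43 and 42 bases before the start. None of the 8 windows of members held the STAT letters. These are descriptions of letters, not of binding: of 32536 windows of the same length, 46.0% held the NF-kB letters, 9.6% the C/EBP letters and 7.0% the STAT letters.

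**Figure D1:**
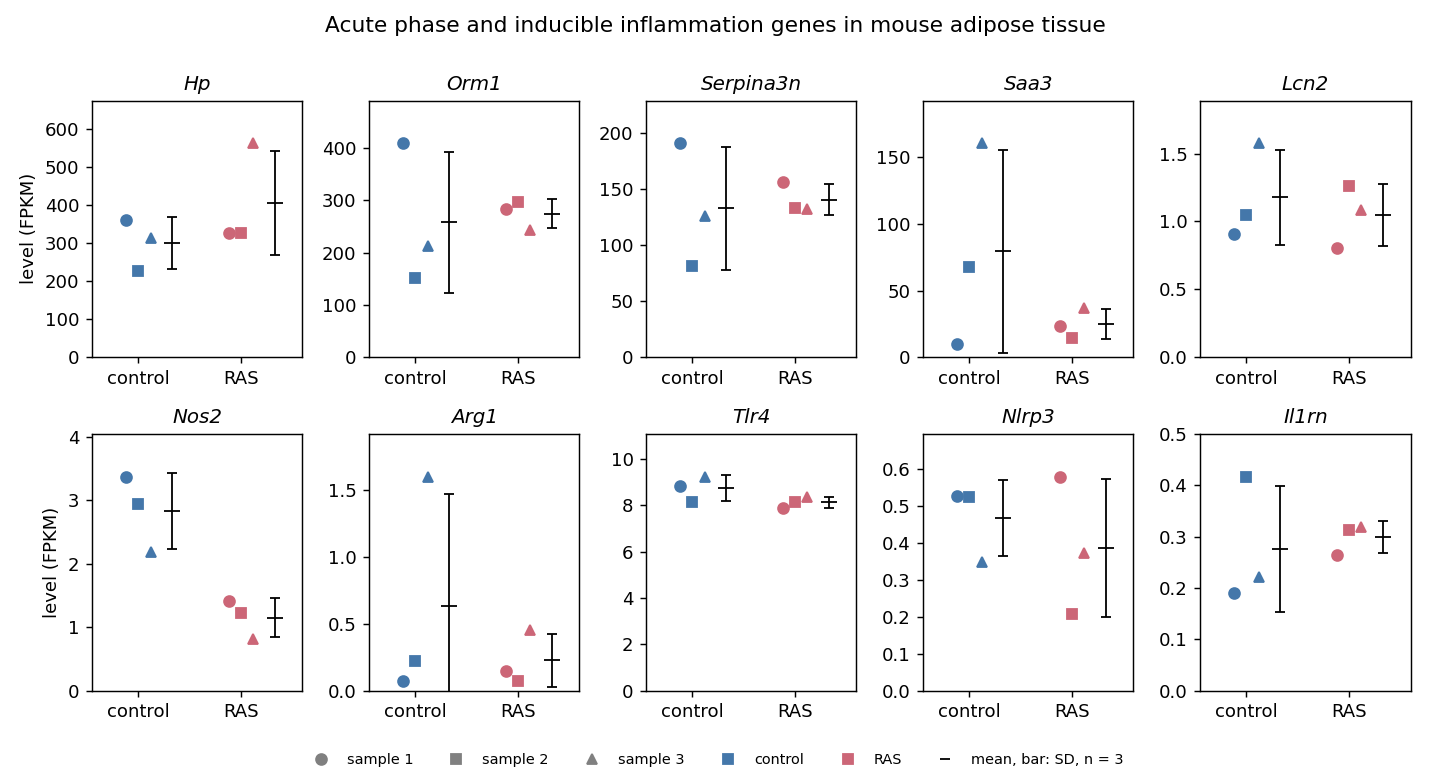
Level of each of the 10 genes in FPKM (vertical axis, linear, starting at 0) in the control and RAS libraries; symbols are single libraries, and the black mark and bar are the mean and SD of 3 libraries, with the lower end of the control bar of Arg1 hidden below 0. The control and RAS symbols are apart only for Nos2, and the 3 control values of Saa3 spread from 9.90 to 160 FPKM.

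The 10 genes fell into separate levels. Averaged over the 6 libraries, Hp stood at 353 ± 112 FPKM (SD, n = 6), Orm1 at 266 ± 87.2, Serpina3n at 137 ± 36.1 and Saa3 at 52.1 ± 57.0, and the ranges of neighbours in this order overlapped. Tlr4, at 8.44 ± 0.508 FPKM, lay below every library of Saa3 and above every library of the next gene. Nos2 at 1.99 ± 1.01, Lcn2 at 1.11 ± 0.275, Arg1 at 0.428 ± 0.590, Nlrp3 at 0.427 ± 0.142 and Il1rn at 0.288 ± 0.0809 FPKM followed, each with a range that overlapped its neighbour's. Secreted acute phase proteins thus held the upper places, Lcn2 apart, and the inducible enzymes and the inflammasome genes the lower ones.

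Haptoglobin, the hemoglobin-binding plasma protein encoded by Hp (chr8:109575128-109579172), was the most abundant member by its mean. It stood at 362, 226 and 313 FPKM in control 1, 2 and 3 and at 326, 328 and 563 FPKM in RAS 1, 2 and 3. The value of RAS 3 was above all others, and the remaining RAS values lay inside the control range. The difference was 0.41 ± 0.28 (log2, SE; limma adjusted p = 0.651), with a 95% interval from -0.24 to 1.07. Without RAS 3 it was 0.15, and without control 2, the lowest library, 0.22.

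Orm1 (chr4:63344566-63348162) encodes orosomucoid 1, a plasma carrier protein. It lay at 409, 152 and 212 FPKM in the control libraries and at 282, 296 and 243 FPKM in the RAS libraries. Both the highest and the lowest values were control values, and the RAS libraries sat between them. The difference of 0.21 ± 0.34 (log2, SE, limma adjusted p = 0.858) became -0.11 without control 2 and 0.60 without control 1 (limma adjusted p = 0.372). It was 0.69 without control 1 and RAS 3 together. Orm1 shares 20.4% of its 50-base stretches with its neighbour Orm2, so reads could be split between them in counting. Orm2 stood far lower, at 3.16 to 7.0 FPKM in controls and 4.34 to 15.5 FPKM in RAS libraries (log2 0.80 ± 0.46, limma adjusted p = 0.598). That difference was 0.49 without control 2, 0.51 without RAS 1, 1.32 without RAS 3 and 1.49 without control 1 and RAS 3 together. Orm3 lay at 5.21 to 9.86 and 1.58 to 7.03 FPKM (log2 -0.47 ± 0.45, limma adjusted p = 0.744; 0.07 without RAS 3).

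Serpina3n (chr12:104406708-104414329), a secreted inhibitor of serine proteases, had values of 191, 81.8 and 126 FPKM in the control libraries and 157, 133 and 132 FPKM in the RAS libraries. As for Orm1, control 1 was the highest library, control 2 the lowest, and the RAS libraries lay between. The difference was 0.16 ± 0.29 (log2, SE; limma adjusted p = 0.872), -0.14 without control 2 and 0.46 without control 1. Serpina3n shares 6.9% of its 50-base stretches with other genes, most with the pseudogene Serpina3e-ps.

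Saa3 (chr7:46711998-46715676) encodes serum amyloid A3, the family member made outside the liver. Its level was 9.90, 67.6 and 160 FPKM in control 1, 2 and 3, on 46, 354 and 782 reads, and 23.5, 14.4 and 36.7 FPKM in RAS 1, 2 and 3, on 99, 60 and 161 reads. The highest library exceeded the lowest by 16.2 times, and both were controls. Control 2 and 3 were above all RAS libraries and control 1 was below all of them. The mean difference was -1.03 ± 0.90 (log2, SE; limma adjusted p = 0.724), with a 95% interval from -3.14 to 1.09 that holds 0. Single controls set its size: it was -2.12 without control 1 (limma adjusted p = 0.267) and -0.17 without control 3, -2.44 without control 1 and RAS 3 together (limma adjusted p = 0.177) and -1.91 with sample weights (limma adjusted p = 0.306). The liver forms of the family were nearly silent, with Saa1 at 0 to 0.509 FPKM, on 0 to 3 reads, and Saa2 listed at 0 in 5 of the 6 libraries.

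Markers of mesothelium, the cell layer that covers visceral fat, varied along with Saa3 among the controls. The 9 markers summed to 35.2, 229 and 287 FPKM in control 1, 2 and 3 and to 119, 183 and 192 FPKM in RAS 1, 2 and 3. All 9 were above 0 in every library, and the most abundant, Upk3b, was at 11.7, 88.7 and 116 FPKM in the controls and 45.3, 74.9 and 67.9 FPKM in the RAS libraries. Control 1 was lowest and control 3 highest for Saa3 and for the markers alike, whereas RAS 2 was lowest of the RAS libraries for Saa3 and not for the markers. This order among the controls was not particular to mesothelium. Macrophage markers summed to 540, 650 and 820 FPKM in control 1, 2 and 3, and the epithelium and liver lists rose in the same order. Endothelium markers ran the other way, at 316, 277 and 247 FPKM. The part of any of these cells in the Saa3 values was not tested. In bulk tissue, fewer cells of a type and less RNA per cell cannot be told apart.

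**Figure D2:**
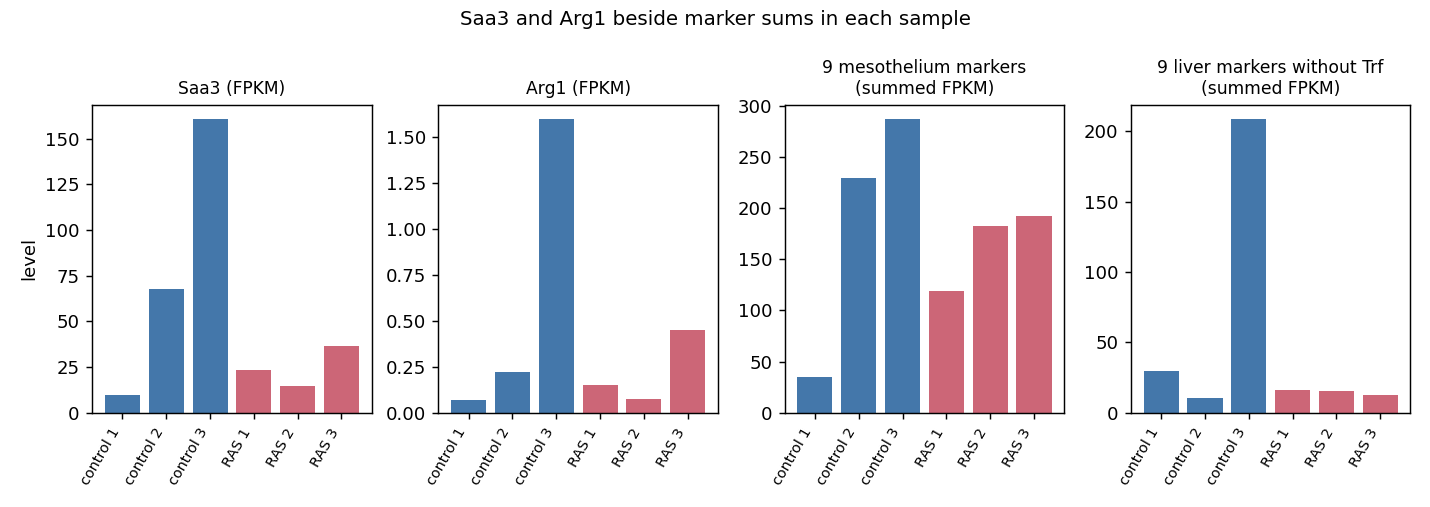
Levels in each library (bars, FPKM, from 0) of Saa3, of Arg1, of 9 summed mesothelium markers and of 9 summed liver markers without Trf; blue bars are control and red bars RAS libraries. Control 3 is the tallest bar in all 4 panels, and control 1 the shortest for Saa3, Arg1 and the mesothelium markers.

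Lcn2 (chr2:32384637-32387739), the iron-siderophore binding protein lipocalin 2, was the lowest of the acute phase members. It was at 0.911, 1.05 and 1.58 FPKM in the control libraries and 0.801, 1.26 and 1.08 FPKM in the RAS libraries, on 9 to 19 reads. The groups overlapped, with a difference of -0.08 ± 0.18 (log2, SE; limma adjusted p = 0.895) and a 95% interval from -0.50 to 0.33. It was 0.04 without control 3 and 0.01 without RAS 1. Neutrophils also carry Lcn2. Of 11 neutrophil markers in the table, 5 were above 0 in every library, and the list summed to 6.55 to 10.1 FPKM in the controls and 11.8 to 23.8 FPKM in the RAS libraries. These sums were apart between the groups, but different genes raised them. S100a8 was highest in RAS 1, at 15.5 FPKM. S100a9 and Retnlg were highest in RAS 3, at 7.08 and 5.80 FPKM, and S100a9 was lowest in RAS 1, at 0.482 FPKM. Of the 4 markers tested, 3 were higher and 1, Csf3r, lower in RAS, and 0 passed. Ranges were apart for 0 of the 4, beside 17.9% of all tested genes in either direction. The most abundant marker, S100a8, overlapped between groups, at 2.73 to 5.96 and 3.58 to 15.5 FPKM. The granule enzyme Elane, below the minimum for the test, was apart, at 0.414 to 0.689 and 0.930 to 2.04 FPKM. Another granule enzyme, Mpo, was at 0 to 0.113 FPKM. The part of neutrophils in the Lcn2 values was not tested.

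Beyond the members, 30 further acute phase and complement genes were listed and 18 tested. Of these 10 were higher and 8 lower, with a median of 0.02, and 0 passed the test. Unadjusted p under 0.05 was reached with RAS higher by 0 and with RAS lower by 2, against 3.86% and 6.41% of all tested genes. These were Itih4, an inter-alpha-trypsin inhibitor heavy chain, and C4b, complement component 4. Itih4 was at 1.05, 2.64 and 3.08 FPKM in the controls and 0.391, 0.719 and 0.488 FPKM in the RAS libraries (log2 -1.03 ± 0.27, limma adjusted p = 0.315). C4b was at 102, 185 and 195 FPKM and at 97.9, 97.1 and 95.8 FPKM (log2 -0.67 ± 0.25, limma adjusted p = 0.432). Both were lower in RAS in every library, though control 1 came close to the RAS level for C4b. Ranges were thus apart with RAS lower for 2 of the 18, beside 12.5% of all tested genes. With RAS higher they were apart for 1, Lrg1, beside 5.42% of all tested genes. Lrg1 was at 72.0 to 80.7 FPKM in the controls and 84.8 to 112 FPKM in the RAS libraries (log2 0.31 ± 0.15, limma adjusted p = 0.523). Hamp and Serpina3k, among the genes counted as lower, stood high in control 3 alone, at 11.5 and 6.76 FPKM. Elsewhere they reached at most 0.456 and 0.771 FPKM. Control 3 was also the highest library for liver markers without Trf, and their part was not tested. The most abundant listed genes were C3, the central complement component, at 192 to 414 FPKM over the 6 libraries, and Serping1, the C1 inhibitor, at 143 to 283 FPKM.

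Nos2 (chr11:78920859-78960124; NCBI gene 18126), the inducible nitric oxide synthase, was the only member whose groups did not overlap. It stood at 3.37, 2.94 and 2.19 FPKM in control 1, 2 and 3, on 249, 237 and 156 reads, and at 1.41, 1.23 and 0.813 FPKM in RAS 1, 2 and 3, on 97, 84 and 55 reads. Every RAS library was below every control. Means were 2.83 ± 0.597 and 1.15 ± 0.306 FPKM (SD, n = 3 each). The difference was -0.83 ± 0.18 (log2, SE), with a 95% interval from -1.25 to -0.42; its unadjusted p was 0.00199 and its adjusted p 0.261 in limma. Nos2 did not pass the test across all genes, and its adjusted p ranged from 0.146 to 0.516 over the alternatives. The scale understates a change at this level: with a pseudocount of 0.1 the difference was -1.24. Macrophage markers, which could carry Nos2, overlapped between groups at sums of 540 to 820 FPKM and 604 to 769 FPKM; all 10 were above 0 in every library, and Adgre1, listed under its older symbol Emr1, was at 13.3 to 16.4 and 14.1 to 17.5 FPKM.

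**Figure D3:**
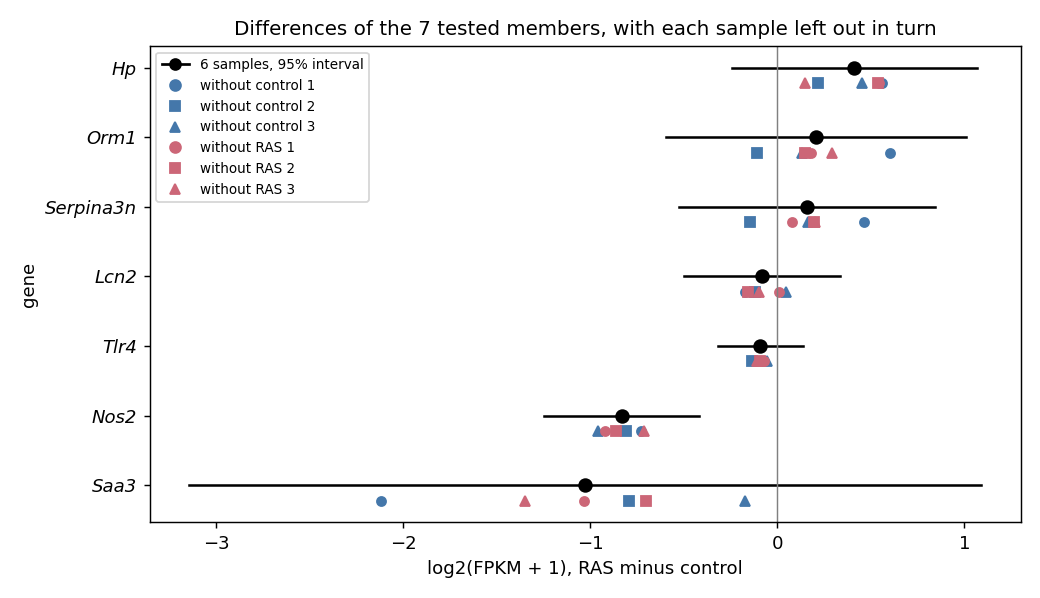
Difference of the 7 tested genes, RAS minus control, in log2(FPKM + 1) (horizontal axis): black points and lines are the value over 6 libraries and its 95% interval, and coloured symbols the value with 1 library left out. The interval lies below 0 for Nos2 alone; the symbols of Saa3 run from -2.12 to -0.17.

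Arg1 (chr10:24915207-24927470) encodes arginase 1, an enzyme of the urea cycle in liver and of alternatively activated macrophages. It was at 0.0726, 0.222 and 1.6 FPKM in control 1, 2 and 3, on 2, 7 and 45 reads, and at 0.150, 0.0755 and 0.450 FPKM in RAS 1, 2 and 3, on 4, 2 and 12 reads. Control 3 stood above all other libraries and RAS 3 was next. The difference of means, -0.31 on the log2 scale, was 0.09 without control 3, -0.55 without control 1 and -0.68 without control 1 and RAS 3 together. Arg2, the mitochondrial arginase, was at 0 to 0.137 FPKM. Liver markers were also highest in control 3: the 9 without Trf, which fat cells express, summed to 29.8, 10.3 and 208 FPKM in the controls and 16.4, 15.2 and 12.7 FPKM in the RAS libraries, with albumin (Alb) at 88.4 FPKM in control 3 and 6.51 to 14.6 FPKM elsewhere. Their part in the Arg1 value was not tested.

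Within a library, the log2 ratio of Nos2 to Arg1 (pseudocount 0.1) was 4.33, 3.24 and 0.43 in the controls and 2.59, 2.92 and 0.73 in the RAS libraries. Library 3 of each group had the lowest ratio. The means differed by -0.58 (exact permutation test, two-sided p = 0.6, where the smallest possible p is 0.1), and by 0.25 without control 1 and 0.09 without RAS 3.

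Nos2 and the arginases share arginine with the genes of its uptake and of polyamine synthesis. Of 19 such genes 16 were tested, 5 were higher and 11 lower, with a median of -0.11, which was -0.24 without RAS 3, and 0 passed the test. An unadjusted p under 0.05 was found for 4, all with RAS lower, beside 6.41% of all tested genes in that direction. Slc7a1, the main cationic amino acid transporter, was at 3.11, 3.9 and 3.63 FPKM in the controls and 2.23, 1.96 and 1.45 FPKM in the RAS libraries (log2 -0.66 ± 0.15, limma adjusted p = 0.274). Slc7a2, a related transporter, was at 2.47, 2.93 and 1.96 FPKM and at 1.8, 1.77 and 1.1 FPKM (log2 -0.44 ± 0.18, limma adjusted p = 0.463). For both transporters every RAS library lay below every control.

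Srm, spermidine synthase, was at 23.3, 22.1 and 25.3 FPKM in the controls and 17.0, 12.8 and 18.4 FPKM in the RAS libraries (log2 -0.54 ± 0.15, limma adjusted p = 0.338). Amd1, which makes the aminopropyl donor for spermidine, was at 16.5, 13.6 and 13.5 FPKM and at 9.78, 9.61 and 11.1 FPKM (log2 -0.47 ± 0.12, limma adjusted p = 0.310). Ranges were apart with RAS lower for 5 of the 16, these 4 and, by a narrow margin, Oat, ornithine aminotransferase, and with RAS higher for 1, Gch1, which begins synthesis of the cofactor of nitric oxide synthases. Over all tested genes these shares were 12.5% and 5.42%. The most abundant of the list were Oat, at 73.9 to 103 FPKM over the libraries, Pts, at 24.4 to 37.4 FPKM, and Spr, at 24.8 to 35.1 FPKM. The last pair also serve cofactor synthesis.

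**Figure D4:**
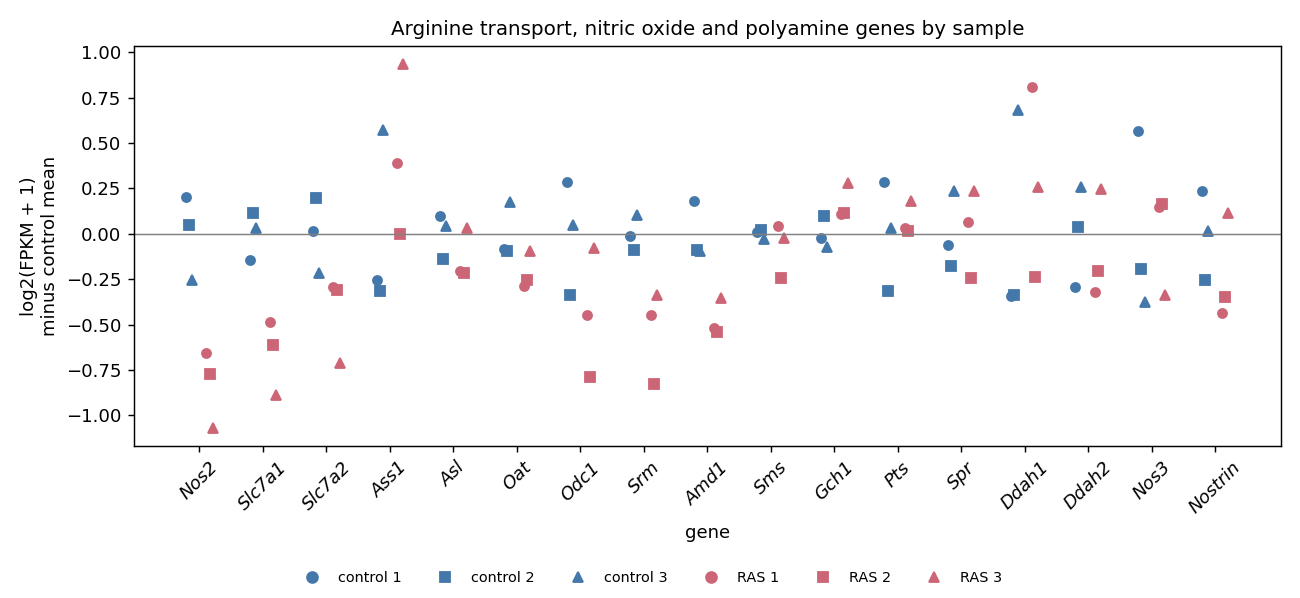
Nos2 and the 16 tested genes of arginine, nitric oxide and polyamine metabolism in each library, as log2(FPKM + 1) minus the mean of the 3 control libraries (vertical axis); blue symbols are controls and red symbols RAS libraries. All red symbols lie below all blue ones for Nos2, Slc7a1, Slc7a2, Oat, Srm and Amd1, and above them for Gch1.

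Genes that accompany Nos2 in classically activated macrophages were mostly too low to test: 6 of 16 were tested, 3 higher and 3 lower, with a median of -0.05. Unadjusted p under 0.05 was reached by Irf8, an interferon-regulated transcription factor of myeloid cells, and by Cd38, an enzyme that consumes NAD. These are 2 of the 6, both with RAS lower, beside 6.41% of all tested genes in that direction. Irf8 was at 4.69 to 5.62 FPKM in the controls and 2.89 to 4.21 FPKM in the RAS libraries (log2 -0.46 ± 0.14, limma adjusted p = 0.364). Cd38 was at 8.46 to 8.71 and 6.07 to 6.95 FPKM (log2 -0.33 ± 0.10, limma adjusted p = 0.355). Ranges were apart with RAS lower for 2 of the 6, Irf8 and Cd38, and with RAS higher for 0, beside 12.5% and 5.42% of all tested genes. Below the minimum for the test, Tnf and Cd80 were also apart with RAS lower. The cytokine Tnf lay at 0.152 to 0.317 FPKM in the controls and 0.123 to 0.124 FPKM in the RAS libraries. That separation rests on few reads, 8, 6 and 4 in the controls and 3 in each RAS library. Cd80 was at 0.764 to 1.00 and 0.450 to 0.752 FPKM. Irf1, the most abundant, was at 21.0 to 31.9 FPKM over the 6 libraries.

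Of 16 genes that accompany Arg1 in alternatively activated macrophages 15 were in the table and 11 tested, 4 higher and 7 lower, with a median of -0.11. Irf4 and Klf4, transcription factors of that state, had an unadjusted p under 0.05 with RAS higher, beside 3.86% of all tested genes in that direction. Fat cells express Irf4 and Klf4 as well. Irf4 was at 2.15, 4.03 and 2.68 FPKM in the controls and 6.32, 7.15 and 14.9 FPKM in the RAS libraries (log2 1.34 ± 0.31, limma adjusted p = 0.275), with a difference of 0.85 without control 1 and RAS 3. Klf4 was at 15.8, 20.1 and 25.3 FPKM and at 28.7, 23.3 and 34.3 FPKM (log2 0.48 ± 0.20, limma adjusted p = 0.483), with 0.32 without control 1 and 0.19 without control 1 and RAS 3. Klf4 overlapped between the groups. Of the 11, 1 was apart with RAS higher, Irf4, and 1 with RAS lower, Il4ra, beside 5.42% and 12.5% of all tested genes. Il4ra was at 19.0 to 20.8 FPKM in the controls and 11.5 to 18.5 FPKM in the RAS libraries (log2 -0.37 ± 0.18, limma adjusted p = 0.529). Ccl17, below the minimum for the test, was also apart with RAS lower, at 0.608 to 0.662 and 0.238 to 0.491 FPKM. Retnla, a secreted product of such macrophages that fat tissue makes in quantity, was at 464 to 789 FPKM over the 6 libraries, Tgm2 at 103 to 123 FPKM and the lectin Clec10a at 38.6 to 58.3 FPKM, against at most 1.6 FPKM for Arg1.

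Tlr4 (chr4:66827811-66842797), the lipopolysaccharide receptor, varied least of the tested members. It was at 8.86, 8.13 and 9.24 FPKM in the controls, on 665 to 754 reads, and at 7.90, 8.16 and 8.36 FPKM in the RAS libraries, on 622 to 685 reads. The highest library exceeded the lowest by 1.17 times and the groups overlapped. The difference was -0.09 ± 0.10 (log2, SE; limma adjusted p = 0.767), and its 95% interval, from -0.32 to 0.14, was the narrowest among the tested members. Its partners overlapped too: Cd14, the co-receptor, was at 10.5 to 17.3 and 12.4 to 19.1 FPKM (log2 0.17 ± 0.21, limma adjusted p = 0.802), and Ly96, the MD-2 subunit, at 6.24 to 7.34 and 4.16 to 8.21 FPKM (log2 -0.05 ± 0.23, limma adjusted p = 0.955). The sign of the Cd14 difference turned without control 1 and RAS 3 (-0.15), and that of Ly96 without RAS 1 (0.22).

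Across 40 genes of Toll-like receptor and NF-kB signalling 38 were tested, 14 higher and 24 lower, with a median of -0.11, and 0 passed. Under quantile normalization this median was -0.06. An unadjusted p under 0.05 was reached by 2, both with RAS lower, beside 6.41% of all tested genes in that direction. Tlr7, the sensor of single-stranded RNA, was at 3.24, 4.62 and 3.74 FPKM in the controls and 2.52, 2.79 and 2.79 FPKM in the RAS libraries (log2 -0.39 ± 0.13, limma adjusted p = 0.416). Cd180, a TLR4-related receptor of B cells and macrophages, was at 1.45, 1.47 and 1.07 FPKM and at 0.934, 0.838 and 0.432 FPKM (log2 -0.43 ± 0.18, limma adjusted p = 0.468), and the difference was -0.26 without control 1 and RAS 3. Ranges were apart with RAS lower for 6 of the 38, Tlr7 and Cd180 among them, beside 12.5% of all tested genes. No tested gene of the list was apart with RAS higher, against 5.42% of all tested genes. The most abundant were Nfkbia, the NF-kB inhibitor, at 24.3 to 59.8 FPKM, the kinase Irak1 at 21.0 to 29.2 FPKM and the NF-kB subunit Rela at 19.7 to 26.7 FPKM.

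Nlrp3 (chr11:59542686-59566956), the sensor of the inflammasome that activates caspase 1, was at 0.528, 0.524 and 0.349 FPKM in the controls and 0.579, 0.207 and 0.374 FPKM in the RAS libraries, on 15 to 44 reads. RAS libraries held both the highest and the lowest value. The difference of means was -0.09 on the log2 scale and 0.01 without RAS 2. Casp1 itself was more abundant, at 10.5 to 13.9 and 11.4 to 14.7 FPKM (log2 0.13 ± 0.14, limma adjusted p = 0.763).

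Il1rn (chr2:24336860-24351491), the interleukin 1 receptor antagonist, was at 0.191, 0.417 and 0.222 FPKM in the controls and 0.263, 0.314 and 0.320 FPKM in the RAS libraries, on 8 to 20 reads. All RAS values lay inside the control range. The cytokines it opposes were barely read: Il1b had 3, 0 and 0 reads in the controls and 5, 6 and 6 in the RAS libraries, and Il1a 1 to 3 in any library. The log2 ratio of Il1rn to Il1b (pseudocount 0.1) was 0.32, 2.37 and 1.69 in the controls and 0.15, 0.14 and 0.16 in the RAS libraries. The groups were apart, with a difference of -1.31 that reached the smallest p of the design (exact permutation test, two-sided p = 0.1). It rests on those few Il1b reads and was -3.29 with a pseudocount of 0.01 and -0.24 with a pseudocount of 1.

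Inflammasome and interleukin 1 genes numbered 20, of which 14 were tested, 7 higher and 7 lower, with a median of 0.01 and 0 passing. Without control 1 the median was -0.10, with 5 higher and 9 lower, and at a minimum mean of 5 FPKM it was 0.11, with 7 higher and 1 lower. The receptor Il1r1 alone had an unadjusted p under 0.05, with RAS lower, beside 6.41% of all tested genes in that direction. It was at 10.8, 9.75 and 12.6 FPKM in the controls and 9.28, 8.01 and 7.77 FPKM in the RAS libraries (log2 -0.37 ± 0.13, limma adjusted p = 0.416), below every control in each RAS library. The most abundant were Txnip, which can bind NLRP3, at 429 to 1133 FPKM over the libraries and the kinase Nek7 at 24.7 to 29.8 FPKM.

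Among 16 genes of interleukin 6 and C/EBP signalling, the route to acute phase genes, 12 were tested, 4 higher and 8 lower, with a median of -0.11 and 0 passing. Pim3, a serine/threonine kinase of the PIM family, had an unadjusted p under 0.05 with RAS higher. Socs3, the feedback inhibitor of interleukin 6 signalling, had one with RAS lower. Over all tested genes 3.86% and 6.41% had such a p in these directions. Pim3 was at 69.5, 61.7 and 60.8 FPKM in the controls and 96.2, 87.7 and 121 FPKM in the RAS libraries (log2 0.65 ± 0.16, limma adjusted p = 0.283). Socs3 was at 2.38, 2.79 and 4.01 FPKM and at 2.1, 1.8 and 1.99 FPKM (log2 -0.44 ± 0.17, limma adjusted p = 0.447), and the difference was -0.27 without control 3 (limma adjusted p = 0.702). Ranges were apart with RAS higher for 2 of the 12, Pim3 and the receptor Lifr, and with RAS lower for 1, Socs3. These shares were 5.42% and 12.5% over all tested genes. Il6 itself had 1 to 5 reads in every library, while its signal transducer Il6st was at 50.7 to 65.5 FPKM and the transcription factor Cebpb at 34.6 to 94.6 FPKM.

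**Figure D5:**
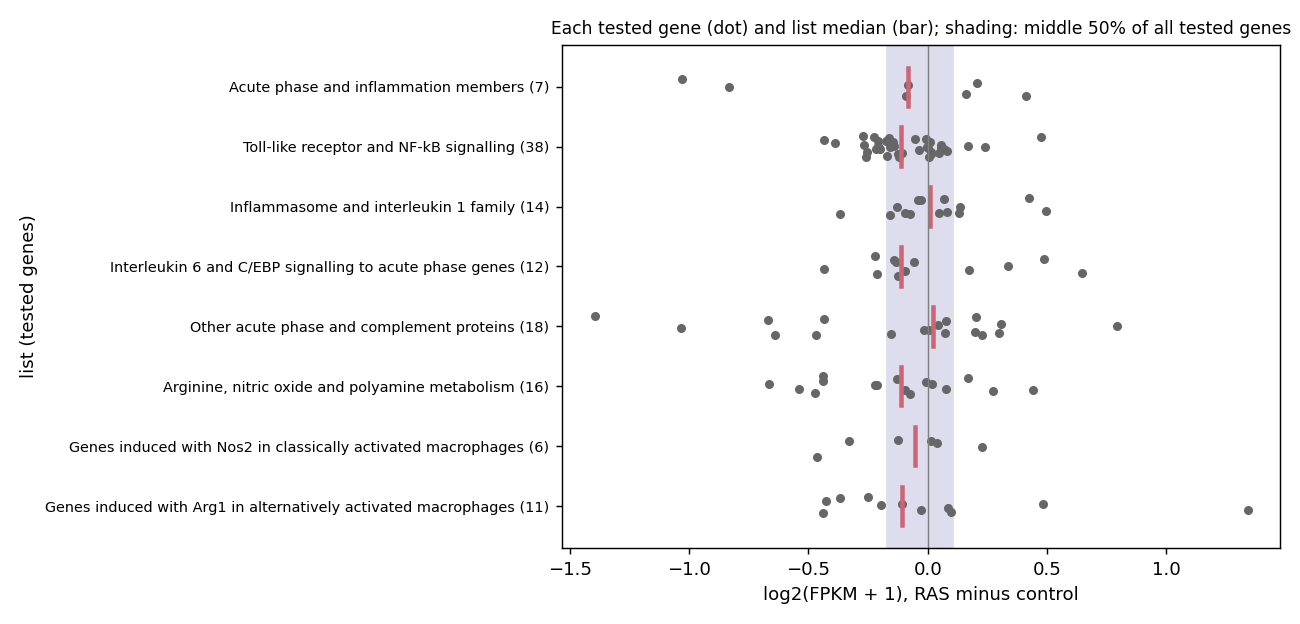
Difference of each tested gene (dots), RAS minus control in log2(FPKM + 1) (horizontal axis), for the 7 tested members and 7 pathway lists; red bars are list medians and the shaded band holds the middle 50% of all tested genes, from -0.17 to 0.11. Every list median lies inside the band, between -0.11 and 0.02, while Nos2 and Saa3 lie to its left and Hp, Orm1 and Serpina3n to its right. The band describes single genes, and medians of several genes spread less, so it is no test of a list.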

How the data were processed

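RNA-seq of adipose tissue was compared between 3 control and 3 RAS samples. The authors deposited FPKM values per gene and sample, used as given, and a scaled count signal per gene and sample, which was not treated as raw counts. The submitters' processing notes name TopHat2 2.0.9 and Cufflinks 2.1.1; build and annotation: not given in the sources used here. Poly(A) RNA was enriched per the labels' protocols, which name no strand-specific step, so overlapping and antisense genes cannot be told apart. Of the table's genes 4251 share a locus with another gene; no member does. Loci are printed counted from 1; of 18819 genes with a RefSeq GRCm38.p6 entry, 99.9% overlapped it.

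The numbered columns named for the RAS group in the treatment protocol were taken as RAS and the other numbered set as control, by elimination; 4 columns with per-group values were left out. Reads behind a value are the signal divided by its step per library; 98.82 to 98.95% of values were whole multiples of the step within 0.02 reads.

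The 12606 genes whose mean FPKM was at least 1 were tested with limma 3.58.1 in R 4.3.3 (lmFit, eBayes with trend) on log2(FPKM + 1), unpaired and two-sided, with Benjamini-Hochberg adjustment over all tested genes and a threshold of 0.05. The ratios used an exact permutation test over samples. Members and the 7 pathway and 9 marker lists were chosen with earlier results of these data known, and lists have no test of their own. Named were all members, list genes with an unadjusted p under 0.05, the 3 most abundant genes of each pathway list and the 2 most abundant of each marker list, and a fixed set of partner genes (1 gene of this rule is not reported here); markers not used beside a member are given in the closing observations. A further naming rule took the 3 genes most like each of the 3 most variable of the 7 tested members. On simulated data with 12606 genes and 200 changed, 58.8% of those changed by 1 on the log2 scale and 90.2% of those changed by 2 were recovered, and 9 genes per run were called falsely. How far these rates hold for the libraries compared here was not tested. Alternatives were another pseudocount (0.1) or minimum, other normalizations, a robust variance model, sample weights, a replicate block, the scaled counts, and left-out libraries. Tables and figures were made in Python 3.11.15 (matplotlib 3.10.9, numpy 2.4.6, pandas 2.3.3).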

Additional observations from a re-analysis of the deposited data

How the results depend on the processing

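No member was called under any of the 16 alternatives run; 2 further ones, count models on recovered reads, were not run because the scaled signal did not meet the bar for raw counts, with 98.82 to 98.95% of values whole multiples of a step. Over all genes, 0 were called in the fit reported, 0 to 2 with 1 library left out and 3 without control 1 and RAS 3 together. Nos2 was lower in all 15 alternatives that tested it, from -1.24 to -0.61. Of genes with an unadjusted p under 0.05, 486 were higher and 808 lower; the split was 650 and 660 under quantile normalization, 664 and 640 with median-ratio size factors and 359 and 1192 with the scaled counts. Sign changes among the tested named genes were Orm1 -0.11 and Serpina3n -0.14 without control 2 (0.60 and 0.46 without control 1), Lcn2 0.044 without control 3 and 0.0065 without RAS 1, Orm3 0.071 without RAS 3 (-0.75 without RAS 1), Cd14 -0.062 with sample weights and -0.15 without control 1 and RAS 3, and Ly96 0.0099 under quantile normalization and 0.22 without RAS 1. Among named genes under the minimum, with 1 library left out, differences ran from -0.55 to 0.086 for Arg1, -0.19 to 0.0083 for Nlrp3, -0.019 to 0.11 for Il1rn, -0.10 to 0.039 for Il6, -0.065 to 0.028 for Arg2 and -0.023 to 0.0060 for Il1a. The Toll-like receptor list median was -0.064 under quantile normalization, -0.071 with size factors and -0.15 with scaled counts, and the Arg1-associated list was -0.17 with scaled counts. With 1 library left out, medians ran from -0.11 to -0.056 for the Toll-like receptor list, -0.11 to 0.027 for interleukin 6, -0.15 to 0.094 for other acute phase genes and -0.17 to 0.0062 for the Nos2-associated list, which was -0.20 without control 1 and RAS 3, -0.096 to 0.039 for inflammasome genes, -0.24 to -0.090 for arginine genes and -0.14 to -0.051 for the Arg1-associated list. The Nos2 to Arg1 ratio ran from -1.70 to 0.25, with 0.25 without control 1 and 0.09 without RAS 3. The members' median ran from -0.14 to 0.044 with 1 library left out and was 0.16 at a minimum mean of 5 FPKM, where Nos2 and Lcn2 drop out. Under quantile normalization Hp was 0.25, Orm1 0.06 and Serpina3n 0.06. The cause of these moves was not tested, beyond the fewer samples or genes.

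With the replicate number as a block, 0 genes were called, 1663 had an unadjusted p under 0.05, and Nos2 had a limma adjusted p of 0.262; it changed no call. Same-numbered samples' deviations correlated at 0.178, 0.0960 and 0.219, not all over 0.1, so the numbers were not taken to pair samples; each sample correlated best with its own number, a hint from the data only. Depth limits Arg1, Il1rn, Nlrp3, Lcn2 and the cytokines, which rest on 45 reads or fewer per library.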

Other observations

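Over the 6 libraries, the genes whose log2(FPKM + 1) followed the 3 most variable of the tested members best, by Pearson's r among genes with a mean of at least 5 FPKM, are given as a description. For Nos2 these were Agfg1 (r = 0.997), Sf3a1 (0.993) and Atp1b2 (0.990). Agfg1 was at 14.5, 13.8 and 12.5 FPKM in the controls and 11.4, 10.99 and 9.81 FPKM in the RAS libraries, a far narrower range than that of Nos2. For Saa3 they were Zfp651 (0.979), Arhgef1 (0.979) and Tfeb (0.978), and Tfeb ran from 5.78 FPKM in control 1 to 7.81 FPKM in control 3. For Orm1 they were Epb4.9 (0.992), Brd7 (0.989) and Dcaf4 (0.988), and Epb4.9 was at 14.4, 6.94 and 9.62 FPKM in the controls and 11.7, 11.8 and 9.99 FPKM in the RAS libraries. They were the best among 6730 candidates or more over 6 points that share their libraries.

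Control 3 held the highest value of 4 of the 10 members and control 1 that of 3; control 1 and control 2 each held the lowest value of 3. Sums of other marker lists overlapped between the groups: lymphocyte markers were at 9.94 to 19.2 FPKM in the controls and 12.4 to 21.3 FPKM in the RAS libraries, endothelium at 247 to 316 and 274 to 323 FPKM, and fibroblast and preadipocyte markers at 1880 to 2539 and 1561 to 2225 FPKM. Gland and skin epithelium markers, of which 2 of 6 were above 0 in every library, summed to 2.13, 12.5 and 18.1 FPKM in control 1, 2 and 3 and to 5.02, 7.52 and 13.4 FPKM in RAS 1, 2 and 3. Over the 6 libraries, the most abundant markers were at 229 to 445 FPKM for Lyz2 and 91.6 to 168 FPKM for C1qa (macrophage), 0 to 5.80 FPKM for Retnlg (neutrophil), 2.98 to 5.29 FPKM for Cd79b and 1.99 to 4.91 FPKM for Cd79a (lymphocyte), 3225 to 8734 FPKM for Cfd (adipocyte) and 4.64 to 40.7 FPKM for Krt19 (mesothelium). Dcn was at 493 to 1196 FPKM and Col3a1 at 254 to 602 FPKM (fibroblast), Pecam1 at 66.4 to 83.7 FPKM (endothelium), Krt7 at 1.87 to 16.8 FPKM and Epcam at 0.0625 to 0.993 FPKM (epithelium), and Trf at 755 to 1317 FPKM (liver list). Eng (endothelium) was at 50.4 to 58.1 FPKM in the controls and 75.3 to 85.7 FPKM in the RAS libraries (log2 0.56 ± 0.12, limma adjusted p = 0.263). Of the 7 endothelium markers 1, Eng, was apart with RAS higher, beside 5.42% of all tested genes. With RAS lower 1 was apart, Tie1, at 24.5 to 32.1 and 20.4 to 24.1 FPKM, beside 12.5%.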
